A study of Mus musculus with 32 samples.

Results

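The lungs of dust-exposed mice that were given rosoxacin were compared with those of mice exposed to the dust alone. The comparison rests on 8 of the 16 mice of the study, 4 in each of these groups, and on 16 of its 32 libraries, since each mouse was sequenced on 2 lanes. All mice were wild-type C57BL/6J males of 6 to 8 weeks. The dust is World Trade Center particulate matter (WTCPM), collected around Ground Zero and instilled into the nose. WTCPM mice received the dust and no drug. Rosoxacin mice received the same dust and rosoxacin at 5 mg/kg by intraperitoneal injection. The other groups were unexposed control mice and dust-exposed mice given dexamethasone at 0.1 mg/kg by the same route, 4 of each. They entered the fit, which shares 1 estimate of the spread over all 16 mice. Whether the WTCPM mice were injected with vehicle, when the drug was given and when the lungs were taken were not given in the labels. The genes described are those with an Ensembl identifier of their own in the deposited table and a mean of at least 0.1 FPKM (a level scaled to transcript length and to library size) over the 16 mice. They number 2749 of 26305 annotated genes, in a table of 54640 features. The other 28335 features are assembled loci without a gene name. They hold 99.9% of all FPKM, so the genes described here are transcripts of low abundance, and most abundant lung genes are not among them.

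Rosoxacin is a quinolone, a class of antibacterial drugs known for blocking bacterial DNA gyrase. In a lung that has taken up particles, epithelium and resident macrophages release chemokines and cytokines that draw in neutrophils, while secreted lectins and mucins, whose sugars include fucose added by fucosyltransferases, line the airway surface. Endothelial cells answer such stimuli with immediate early genes, whose transcripts appear quickly and without new protein synthesis. The comparison asks which transcripts of the dust-exposed lung differ when rosoxacin is added.

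Of the named genes described below, 5 passed the test on both scales used and have a promoter in the RefSeq table for GRCm38.p6, which is the assembly named mm10. Their promoters are shown because these named genes were called on both scales, 2 higher and 3 lower in rosoxacin mice. Each runs 5′ to 3′ on the strand of its gene, from 250 bases before to 50 bases after the start that RefSeq gives.
Apold1 promoter, chr6:134981751-134982050, plus strand: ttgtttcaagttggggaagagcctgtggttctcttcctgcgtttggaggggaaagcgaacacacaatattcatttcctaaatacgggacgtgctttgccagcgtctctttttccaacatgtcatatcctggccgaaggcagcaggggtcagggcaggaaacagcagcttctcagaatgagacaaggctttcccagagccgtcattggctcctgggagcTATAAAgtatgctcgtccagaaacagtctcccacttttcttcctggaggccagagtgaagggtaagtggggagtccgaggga
Itln1 promoter, chr1:171535245-171535544, minus strand: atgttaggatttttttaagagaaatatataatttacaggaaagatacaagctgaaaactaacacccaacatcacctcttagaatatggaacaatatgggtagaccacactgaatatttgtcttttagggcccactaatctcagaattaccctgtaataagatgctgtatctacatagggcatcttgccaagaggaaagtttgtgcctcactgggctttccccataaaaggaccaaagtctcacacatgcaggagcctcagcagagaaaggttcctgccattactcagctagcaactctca
Phgr1 promoter, chr2:118772524-118772823, plus strand: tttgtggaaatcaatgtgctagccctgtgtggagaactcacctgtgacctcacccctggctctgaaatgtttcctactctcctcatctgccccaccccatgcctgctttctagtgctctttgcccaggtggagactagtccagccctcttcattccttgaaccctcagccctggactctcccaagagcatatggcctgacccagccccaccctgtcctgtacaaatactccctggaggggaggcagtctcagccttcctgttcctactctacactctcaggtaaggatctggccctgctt
Eprn promoter, chr13:73347335-73347634, minus strand: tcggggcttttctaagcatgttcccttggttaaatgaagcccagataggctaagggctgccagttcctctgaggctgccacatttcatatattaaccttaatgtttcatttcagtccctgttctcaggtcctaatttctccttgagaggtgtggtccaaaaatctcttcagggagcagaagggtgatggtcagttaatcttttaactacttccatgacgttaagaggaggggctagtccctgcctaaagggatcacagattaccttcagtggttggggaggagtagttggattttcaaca
Pcdh20 promoter, chr14:88471347-88471646, minus strand: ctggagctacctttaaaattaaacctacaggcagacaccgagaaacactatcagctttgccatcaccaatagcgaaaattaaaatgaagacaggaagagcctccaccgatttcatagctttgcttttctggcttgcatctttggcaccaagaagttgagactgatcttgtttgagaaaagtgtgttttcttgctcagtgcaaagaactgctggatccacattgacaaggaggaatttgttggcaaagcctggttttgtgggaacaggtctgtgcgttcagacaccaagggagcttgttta
Capitals mark matches to 5 short motifs, searched on both strands: the TATA box TATAAA, the GC box GGGCGG, the AP-1 site TGANTCA, the cyclic AMP response element TGACGTCA and the E-box CACGTG. Among the 32851 promoters of the table, 13.6% hold the TATA motif, 35.7% the GC box, 7.81% the AP-1 site, 1.79% the cyclic AMP response element and 7.15% the E-box. Apold1 holds 1 TATA motif, which begins 32 bases before the start, and no other motif of the 5. The windows of Itln1, Phgr1, Eprn and Pcdh20 hold none of these letters. The GC content was 51.7% for Apold1, 40.3% for Itln1, 55.0% for Phgr1, 45.3% for Eprn and 43.7% for Pcdh20, against a median of 52.7% over all promoters of the table.

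The scale of the libraries differed between the groups. Total FPKM was 742168 to 803130 in WTCPM mice and 924277 to 1329950 in rosoxacin mice (exact permutation p = 0.0286, adjusted over 6 quantities 0.0429, two-sided, the smallest that 4 against 4 mice can give). The 10 most abundant loci took 55.4% to 59.7% of FPKM in WTCPM mice and 60.1% to 68.6% in rosoxacin mice, and annotated genes took 0.124% to 0.139% and 0.0603% to 0.103% (each with the same exact permutation p and adjusted p). The number of annotated genes above 0.1 FPKM was 2742 to 2858 in WTCPM mice and 2411 to 2750 in rosoxacin mice, which did not pass (exact permutation p = 0.0571, adjusted 0.0686). Depth, estimated from the steps between low FPKM values, overlapped between the groups, at 18705300 to 21560900 fragments for WTCPM and 18269100 to 20672900 for rosoxacin (exact permutation p = 0.657). Median-of-ratios scaling divides each mouse by its median ratio to the geometric mean of 17233 features of at least 1 FPKM. Its factors were 1.03 to 1.07 in WTCPM and 0.746 to 0.950 in rosoxacin mice. It moved the median log2 change of the 2749 genes from -0.16 on the deposited scale to 0.02. Changes of the 11 named genes that passed and most list medians are therefore given on both scales, the deposited one first. Other single genes have a value on the deposited scale alone unless scaling is named, and that scale carries the shift of -0.16. Rosoxacin mice carry the library numbers 1 to 4 and WTCPM mice 5 to 17, so that treatment and library number cannot be told apart by group.

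**Figure D1:**
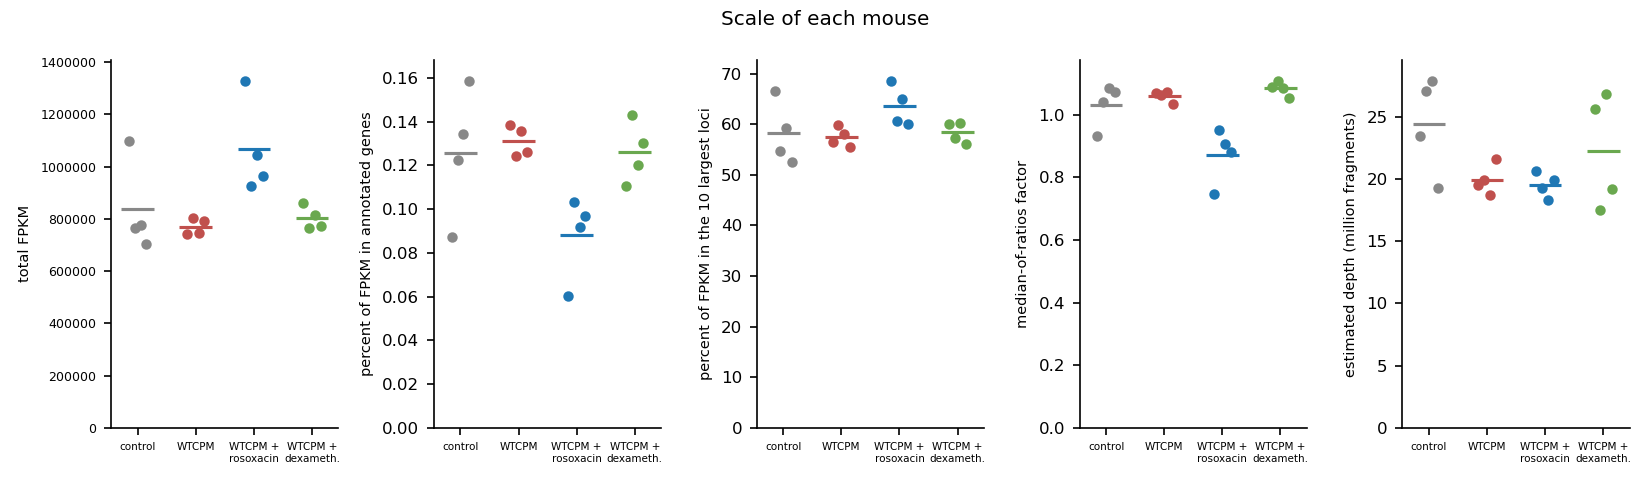
Total FPKM, percent of FPKM in annotated genes, percent of FPKM in the 10 largest loci, median-of-ratios factor and estimated depth, from left to right, for each of the 16 mice (points) with the group mean (line). Rosoxacin mice lie above all WTCPM mice in total FPKM and in the largest loci, and below them in the share of annotated genes and in the factor, at an overlapping depth of 18269100 to 21560900 fragments.

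Few of these low-abundance genes differed beyond the spread between mice. On the deposited scale 15 genes had a Benjamini-Hochberg adjusted p below 0.05 in limma, 3 higher (0.109% of the 2749 genes) and 12 lower (0.437%) in rosoxacin mice. After median-of-ratios scaling 16 did, 10 higher (0.364%) and 6 lower (0.218%). Both sets share 9 genes, and 22 genes passed on at least 1 scale. Of these, 11 have an established symbol and 11 a predicted one. All 4 rosoxacin mice lay above all 4 WTCPM mice in 60 genes (2.18%) and below them in 246 (8.95%) on the deposited scale, and in 137 (4.98%) and 104 (3.78%) after scaling. The balance between higher and lower genes therefore turns with the scale. The 11 named genes kept their sign under each of the scalings tried, but they were picked from the same data for their difference. Between rosoxacin and WTCPM mice, 431 genes had an unadjusted limma p below 0.05 on the deposited scale and 365 after scaling. For comparison, 0 of the 2749 genes (0%) passed in limma between WTCPM and control mice on either scale, with 141 at an unadjusted p below 0.05 on the deposited scale and 138 after scaling.

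**Figure D2:**
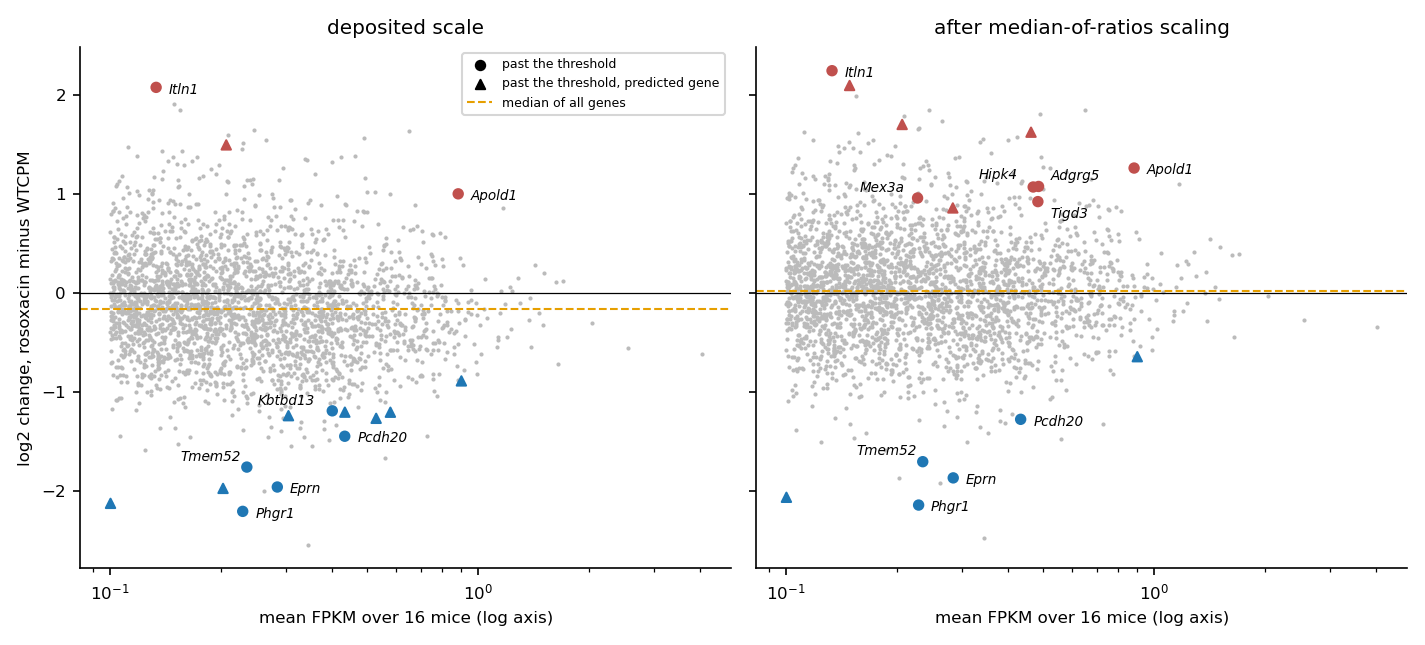
Change in log2(FPKM + 0.1) from WTCPM to rosoxacin mice (vertical axis) against the mean FPKM over the 16 mice (horizontal log axis) for 2749 genes, on the deposited scale (left) and after median-of-ratios scaling (right). Coloured points passed the test, triangles are predicted genes, and the dashed line is the median of all genes, -0.16 on the left and 0.02 on the right.

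The genes that fell on both scales include a gut epithelial gene, a long noncoding RNA, a membrane protein and an adhesion molecule. In a bulk sample, fewer cells of a type and less RNA per cell cannot be told apart. Phgr1 (chr2:118772769-118778165, plus strand, mm10) encodes a small proline, histidine and glycine-rich protein best known from the lining of the gut. WTCPM mice held 0.257, 0.415, 0.491 and 0.324 FPKM, and the gene was listed at 0 in all 4 rosoxacin mice, so that the groups do not overlap. Control mice held 0.0958 to 0.452 and dexamethasone mice 0.246 to 0.380 FPKM. On the log2(FPKM + 0.1) scale the change was -2.21 (SE 0.28, adjusted p = 0.00113) and -2.15 after scaling (adjusted p = 0.00137). It stood without any single mouse, with adjusted p-values of up to 0.0101 on the deposited scale and 0.00711 after scaling. A fitted change of a gene listed at 0 in a whole group depends on the pseudocount and gives no bound. Of 8 intestinal and pancreatic markers with an identifier, Cdx2, Ctrb1, Ins1 and Prss2 were listed at 0 in all 16 mice, and the summed level of the 8, which include Phgr1, was 0.385 to 0.653 FPKM in WTCPM and 0.0752 to 0.230 in rosoxacin mice. Without Phgr1 the other 7 summed to 0.0572 to 0.163 and 0.0752 to 0.230 FPKM, so that the fall in the sum came from Phgr1 alone, and Fabp2, listed at 0 in all WTCPM mice, was at 0.124 and 0.0566 FPKM in 2 rosoxacin mice. The part of such cells in the change was not tested.

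Eprn (chr13:73344665-73347384, minus strand), a long noncoding RNA described in early mouse development, held 0.410, 0.135, 0.383 and 0.450 FPKM in WTCPM mice. One rosoxacin mouse held 0.0372 FPKM and the other 3 were listed at 0, all below the lowest WTCPM mouse. With 1 transcript of 1306 bases, these values stand for 3.50 to 12.7 fragments per WTCPM mouse and for at most 1.00 per rosoxacin mouse. Control mice held 0.288 to 0.453 and dexamethasone mice 0.305 to 0.509 FPKM. The change was -1.96 (SE 0.27, adjusted p = 0.00152) and -1.87 after scaling (adjusted p = 0.00455), and it too stood without any single mouse.

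Tmem52 (chr4:155469114-155470858, plus strand) encodes a transmembrane protein. It was at 0.230, 0.101, 0.259 and 0.459 FPKM in WTCPM mice and listed at 0 in all 4 rosoxacin mice, against 0.196 to 0.401 in control and 0.135 to 0.531 in dexamethasone mice. The change was -1.76 (SE 0.33, adjusted p = 0.0176) and -1.71 after scaling (adjusted p = 0.0223). The call was lost without 3 of the 16 mice in turn on the deposited scale, where the adjusted p reached 0.0653, and without 6 after scaling, where it reached 0.0815.

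Pcdh20 (chr14:88464743-88471396, minus strand) encodes a protocadherin, a cell-surface protein that binds its like on neighbouring cells. WTCPM mice held 0.452, 0.532, 0.574 and 0.719 FPKM and rosoxacin mice 0.0454, 0.160, 0.216 and 0.189, with every rosoxacin mouse below every WTCPM mouse. The means were 0.569 ± 0.112 and 0.153 ± 0.0749 (SD, n = 4 each). Control mice, at 0.387 to 0.650, and dexamethasone mice, at 0.436 to 0.615, overlapped with the WTCPM mice and lay above all rosoxacin mice. The change was -1.45 (SE 0.25, adjusted p = 0.0148) and -1.28 after scaling (adjusted p = 0.0223). The call was lost without 1 of the 16 mice on the deposited scale (adjusted p = 0.0626) and without 3 in turn after scaling, where the adjusted p reached 0.0815.

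Kbtbd13 fell on the deposited scale alone. Its protein, a BTB and kelch adaptor of a ubiquitin ligase, is known from skeletal muscle. The gene (chr9:65388684-65391652, minus strand) was at 0.376, 0.629, 0.477 and 0.617 FPKM in WTCPM and at 0.151, 0.138, 0.174 and 0.219 in rosoxacin mice. These stand for 21.8 to 39.5 and 7.89 to 12.9 fragments per mouse, and the groups do not overlap. The change was -1.19 (SE 0.23, adjusted p = 0.0184), and after scaling it was -0.99 (SE 0.23, adjusted p = 0.0580), which did not pass. The deposited call was lost without 5 of the 16 mice in turn, where the adjusted p reached 0.0784. Control mice held 0.364 to 0.552 and dexamethasone mice 0.259 to 0.599 FPKM. Of 14 muscle markers 3 have an identifier, of which Myl2 and Nppb were listed at 0 in all 16 mice and Kbtbd13 is the third. The part of muscle cells was not tested.

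Rises on both scales were seen in an endothelial immediate early gene and in a secreted lectin. Apold1 (chr6:134981718-134986836, plus strand) encodes a protein with an apolipoprotein L domain that endothelial cells make as an immediate early response. WTCPM mice held 0.438, 0.508, 0.783 and 0.683 FPKM and rosoxacin mice 1.58, 1.36, 1.07 and 1.17, that is 30.5 to 52.5 and 69.8 to 116 fragments per mouse. All rosoxacin mice lay above all WTCPM mice, with means of 1.29 ± 0.223 and 0.603 ± 0.158 (SD, n = 4 each), a ratio of 2.15. The change was 1.00 (SE 0.18, adjusted p = 0.0176) and 1.26 after scaling (adjusted p = 0.00455). Control mice held 0.629 to 0.858 and dexamethasone mice 0.767 to 0.961 FPKM, below all rosoxacin mice and overlapping with the WTCPM mice. On the deposited scale the call was lost without 3 of the 16 mice in turn, where the adjusted p reached 0.0784, and it stood without any single mouse after scaling. The deposited call was also lost when no minimum level was set, after quantile normalisation (adjusted p = 0.0981) and with TPM (adjusted p = 0.108). Of 11 endothelial markers Prox1 alone was tested. It was at 0.394 to 0.600 FPKM in WTCPM and 0.364 to 0.498 in rosoxacin mice (-0.20, adjusted p = 0.745, and 0.03, adjusted p = 0.979, after scaling). The part of endothelial cells in the change of Apold1 was not tested.

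Itln1 (chr1:171518122-171535294, minus strand) encodes intelectin, a secreted lectin that binds sugars of microbial surfaces and is known from goblet and mesothelial cells. It was listed at 0 in 3 WTCPM mice and at 0.0584 FPKM in the other, and it was at 0.331, 0.157, 0.525 and 0.633 in rosoxacin mice. All 4 control mice were listed at 0, and dexamethasone mice ranged from 0 to 0.273. The change was 2.08 (SE 0.44, adjusted p = 0.0401) and 2.25 after scaling (adjusted p = 0.0224), the largest rise among the 2749 genes on both scales. It was lost without 9 of the 16 mice in turn on the deposited scale, where the adjusted p reached 0.126, and without 6 after scaling. The mean of Itln1 was 0.411 FPKM in rosoxacin, 0.0146 in WTCPM, 0 in control and 0.108 in dexamethasone mice. The gene therefore reached the required mean of 0.1 FPKM only through the rosoxacin mice. On the deposited scale its call was also lost when no such minimum was set. Of 7 mesothelial markers Itln1 alone has an identifier, and it is also a goblet cell gene. The goblet cell regulator Spdef was at 0.358 to 0.544 FPKM in WTCPM and 0.492 to 1.05 in rosoxacin mice (0.48, adjusted p = 0.368), and the part of such cells was not tested.

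Another 4 named genes rose only after median-of-ratios scaling. Adgrg5 (chr8:94923694-94943280, plus strand), an adhesion G protein-coupled receptor of leukocytes, was at 0.518, 0.351, 0.246 and 0.389 FPKM in WTCPM and at 0.613, 0.825, 0.791 and 0.708 in rosoxacin mice. Its change was 0.83 (SE 0.20, adjusted p = 0.0560) and 1.08 after scaling (SE 0.19, adjusted p = 0.0155).
Mex3a (chr3:88532395-88541396, plus strand), an RNA-binding protein with KH domains, was at 0.216, 0.185, 0.164 and 0.123 FPKM in WTCPM and at 0.313, 0.421, 0.315 and 0.372 in rosoxacin mice. Its change was 0.75 (SE 0.20, adjusted p = 0.0996) and 0.96 after scaling (SE 0.19, adjusted p = 0.0354). A microRNA gene, Mir1905, lies on its other strand, and the sources used here do not say whether reads were counted by strand.
Tigd3 (chr19:5891138-5894149, minus strand) derives from a transposase gene. It was at 0.365, 0.458, 0.278 and 0.388 FPKM in WTCPM and at 0.735, 0.590, 0.672 and 0.607 in rosoxacin mice, with a change of 0.68 (SE 0.18, adjusted p = 0.0730) and of 0.92 after scaling (SE 0.19, adjusted p = 0.0354).
Hipk4 (chr7:27523267-27531175, plus strand), a protein kinase known from spermatids, was at 0.409, 0.515, 0.281 and 0.435 FPKM in WTCPM and at 0.658, 0.721, 0.745 and 1.10 in rosoxacin mice. Its change was 0.82 (SE 0.25, adjusted p = 0.117) and 1.07 after scaling (SE 0.23, adjusted p = 0.0480). After scaling the call was lost without 2 of the 16 mice in turn for Adgrg5 (adjusted p up to 0.0627), without 9 for Mex3a (0.113), without 10 for Tigd3 (0.114) and without 14 for Hipk4 (0.131). In each of the 4 genes the rosoxacin mice lay above all WTCPM mice also on the deposited scale.

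**Figure D3:**
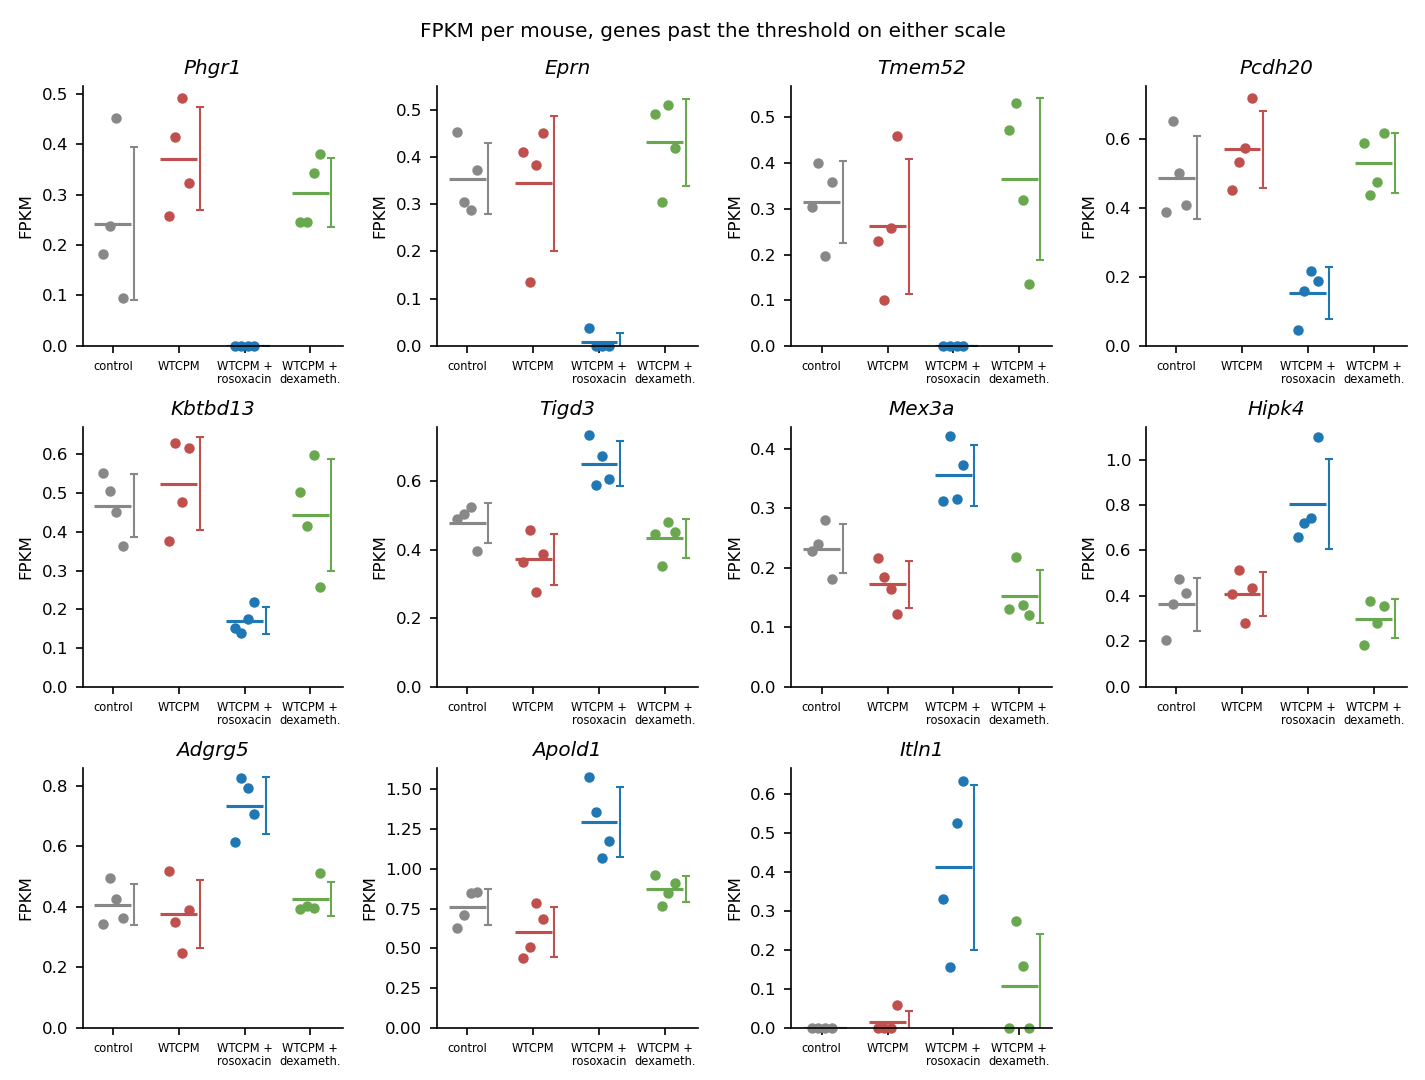
FPKM of the 11 named genes past the threshold on either scale, in control, WTCPM, rosoxacin and dexamethasone mice (deposited scale). Points are mice, lines are group means and bars are ± 1 SD with n = 4, and in each panel the 4 rosoxacin mice lie wholly below (first 5 panels, from Phgr1 to Kbtbd13) or above the 4 WTCPM mice.

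These calls rest on transcripts of low abundance and on the pooled spread of the 4 groups. Of the named genes called on the deposited scale, only Phgr1, Eprn and Pcdh20 also passed when no minimum level was set. The same was true after quantile normalisation, so that Apold1, Itln1, Tmem52 and Kbtbd13 were lost in both. With the library number as a covariate, only Phgr1 and Eprn of the 11 passed on the deposited scale (adjusted p = 0.0244 each) and only Phgr1 after scaling (adjusted p = 0.0474), with only Phgr1 passing (adjusted p = 0.0148) in a fit of the WTCPM and rosoxacin mice alone and none of the 11 passing on 1 lane alone. None of the 11 passed between WTCPM and control mice, where the smallest adjusted p was 0.894 on the deposited scale and 0.910 after scaling, or between dexamethasone and WTCPM mice, where it was 0.866 and 0.923.

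Predicted genes made up the other 11 calls. Processed pseudogenes, which are copies of spliced transcripts put back into the genome, account for 7 of them. Reads can be divided between such a copy and its parent gene, so their values are uncertain. Gm42933 (chr5:102162291-102164359) fell on both scales. It was at 1.00, 1.14, 1.01 and 0.881 FPKM in WTCPM and at 0.406, 0.581, 0.567 and 0.453 in rosoxacin mice, 39.2 to 47.2 against 17.4 to 23.2 fragments, with a change of -0.89 (SE 0.17, adjusted p = 0.0176) and of -0.65 after scaling (adjusted p = 0.0490). Its call was lost without 4 of the 16 mice in turn on the deposited scale (adjusted p up to 0.0784) and without 14 after scaling (up to 0.135). Gm42511 also fell on both (adjusted p = 0.0148 and 0.0155). It was listed at 0 in all rosoxacin mice, but its 0.219 to 0.551 FPKM in WTCPM mice stand for only 1.00 to 2.77 fragments. It reached the required mean of 0.1 FPKM only through the WTCPM mice, with means of 0.0141 in control and 0.0344 in dexamethasone mice. The pseudogenes Gm10923, Gm5575, Gm8101 and Gm17954, with 2.37 to 9.79 fragments per WTCPM mouse, fell on the deposited scale alone, by 1.24, 1.21, 1.21 and 1.27 on the log2 scale (adjusted p = 0.0229, 0.0184, 0.0176 and 0.0229), and Gm10923 lies on the strand opposite the cohesin gene Smc1b. The noncoding RNA Gm17508 fell on the deposited scale, by 1.98 on the log2 scale (adjusted p = 0.0438), from 0.389 to 0.565 FPKM in WTCPM to 0 to 0.159 in rosoxacin mice. Control mice held 0 to 0.278 and dexamethasone mice 0 to 0.168 FPKM of it, and its call was lost without 12 of the 16 mice in turn (adjusted p up to 0.127). The other calls of predicted genes that fell were lost without 2 to 6 of the 16 mice in turn on the deposited scale, and that of Gm42511 without 3 after scaling.

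Among the predicted genes that rose, Gm43123 (chr5:135613829-135617299, minus strand) did so on both scales. It was at 0.149, 0.0710, 0.0324 and 0.127 FPKM in WTCPM and at 0.510, 0.290, 0.337 and 0.686 in rosoxacin mice, with a change of 1.50 (SE 0.32, adjusted p = 0.0401) and of 1.70 after scaling (adjusted p = 0.0223). It had at most 10.1 fragments in a WTCPM mouse and at least 19.4 in a rosoxacin mouse. Its call was lost without 8 of the 16 mice in turn on the deposited scale (adjusted p up to 0.122) and without 4 after scaling (0.0857). Gm36958, Gm37284 and the pseudogene Gm48080 rose after scaling alone (adjusted p = 0.0462, 0.0462 and 0.0436), the first by 0.86 and the second by 1.63 on the log2 scale. Gm48080 had at most 1.86 fragments in any of these 8 mice. It reached the required mean of 0.1 FPKM only through the rosoxacin mice. Its mean was 0.399 FPKM there, 0.0435 in WTCPM, 0.0425 in control and 0.111 in dexamethasone mice. The scaled calls of Gm36958, Gm37284 and Gm48080 were lost without 14, 13 and 10 of the 16 mice in turn. On the deposited scale, where it did not pass, Gm37284 was at 1.16 to 1.29 FPKM in 3 rosoxacin mice and at 0.443 in the other. That value lies within the deposited range of the WTCPM mice, 0.172 to 0.507.

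The next 20 genes by unadjusted p whose groups did not overlap, 10 in each direction, did not pass on either scale. Their adjusted p-values ranged from 0.0560 to 0.236 on the deposited scale and from 0.0564 to 0.237 after scaling. The 10 with higher values in rosoxacin mice include signalling peptides and a receptor. Ucn2, the stress peptide urocortin 2, was at 0.0201 to 0.133 FPKM in WTCPM and at 0.176 to 0.379 in rosoxacin mice (log2 difference 1.23, SE 0.33). Its mean was 0.0726 FPKM in WTCPM, 0.302 in rosoxacin, 0.107 in control and 0.0749 in dexamethasone mice. Ucn2 thus reached the required mean of 0.1 FPKM over the 16 mice only through the rosoxacin mice. Sstr1, a somatostatin receptor, was at 0 to 0.137 and 0.172 to 0.334 (1.07, SE 0.30). Mefv, which encodes pyrin, an inflammasome sensor of neutrophils, was at 0.129 to 0.365 and 0.426 to 0.634 (0.91, SE 0.27), and dexamethasone mice held 0.253 to 0.557. Fut2, a fucosyltransferase of mucosal surfaces, was at 0.371 to 0.675 and 0.926 to 1.20 (0.89, SE 0.28), against 0.238 to 1.01 in control mice.
Lep, the adipocyte hormone leptin, was listed at 0 in 3 WTCPM mice and at 0.0471 FPKM in the other, and ranged from 0.0636 to 0.311 in rosoxacin mice (1.25, SE 0.42). Control mice held more of it, at 0.105 to 0.978 FPKM. Efnb3, the ligand ephrin B3, was at 0 to 0.126 and 0.178 to 0.235 (1.00, SE 0.36). The remaining 4 were Mir670hg, a host transcript of microRNAs (1.55, SE 0.45), Zfp618 (0.58, SE 0.20), the pseudogene Gad1-ps (0.60, SE 0.22) and Pacsin1, an endocytosis adaptor (0.55, SE 0.22).

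Of the 10 with lower values, 5 are pseudogenes. Cbx3-ps2, Cbx3-ps5, Siah1-ps2, Pafah1b1-ps1 and Ywhaq-ps2 had log2 differences of -1.10, -1.01, -1.04, -0.82 and -0.92. Cbx3-ps2 and Cbx3-ps5 are copies of the same parent and may share reads. Trbv3, a variable segment of the T cell receptor beta chain, was at 0.202 to 0.751 FPKM in WTCPM mice and listed at 0 in all rosoxacin mice (log2 difference -2.55, SE 0.59, adjusted p = 0.0560). Rxfp4, the receptor of an insulin-like gut peptide, was at 0.411 to 0.850 and 0.176 to 0.356 FPKM (-1.12, SE 0.26, and -0.90 after scaling). Control mice, at 0.124 to 0.328 FPKM, lay near the rosoxacin mice for this gene. The others were the zinc finger gene Zfp786 (-0.81, SE 0.20), Phf11a (-0.77, SE 0.19) and Spin2c (-0.85, SE 0.24), a relative of the histone reader spindlin.

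The genes were also described by function in 34 lists, of which 30 hold at least 3 tested genes. List members were chosen with earlier results of these data known, so the medians, ranks and shares of lists are a description and no test. No list held more than 1 gene that passed on either scale. The medians of list members are set against -0.16 on the deposited scale and 0.02 after scaling for all 2749 genes. Among these 30 lists the highest median belonged to lectins, mucins and fucosylation, at 0.36 and 0.57, over 11 tested of 44 genes with an identifier, and it was 0.05 with TPM and 0.41 after quantile normalisation, beside -0.46 and -0.10 for all genes. In this list 1 gene passed, Itln1, which reached the required mean of 0.1 FPKM only through the rosoxacin mice. Counting Itln1, 8 of 11 had values above 0 on the deposited scale, beside 998 of all 2749 genes (36.3%). Without overlap 2 of the 11, again with Itln1, were higher and 0 lower, beside 2.18% and 8.95% of all genes. After scaling 3 were higher and 0 lower, beside 4.98% and 3.78%. The lowest value in the list was that of Fut7, which makes selectin ligands on leukocytes, at 0.225 to 0.452 FPKM in WTCPM and 0.0913 to 0.346 in rosoxacin mice (-0.66, SE 0.30, adjusted p = 0.286). The lowest median of the 30 belonged to serpins and serine proteases, at -0.58 and -0.40 over 5 tested genes, of which 0 passed. Without overlap 3 of the 5 were lower on the deposited scale, beside 8.95% of all genes, but only 1 after scaling, beside 3.78%. Spink2, a protease inhibitor, was at 0.288 to 0.647 FPKM in WTCPM and 0 to 0.212 in rosoxacin mice (-2.01, SE 0.60, adjusted p = 0.117).

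**Figure D4:**
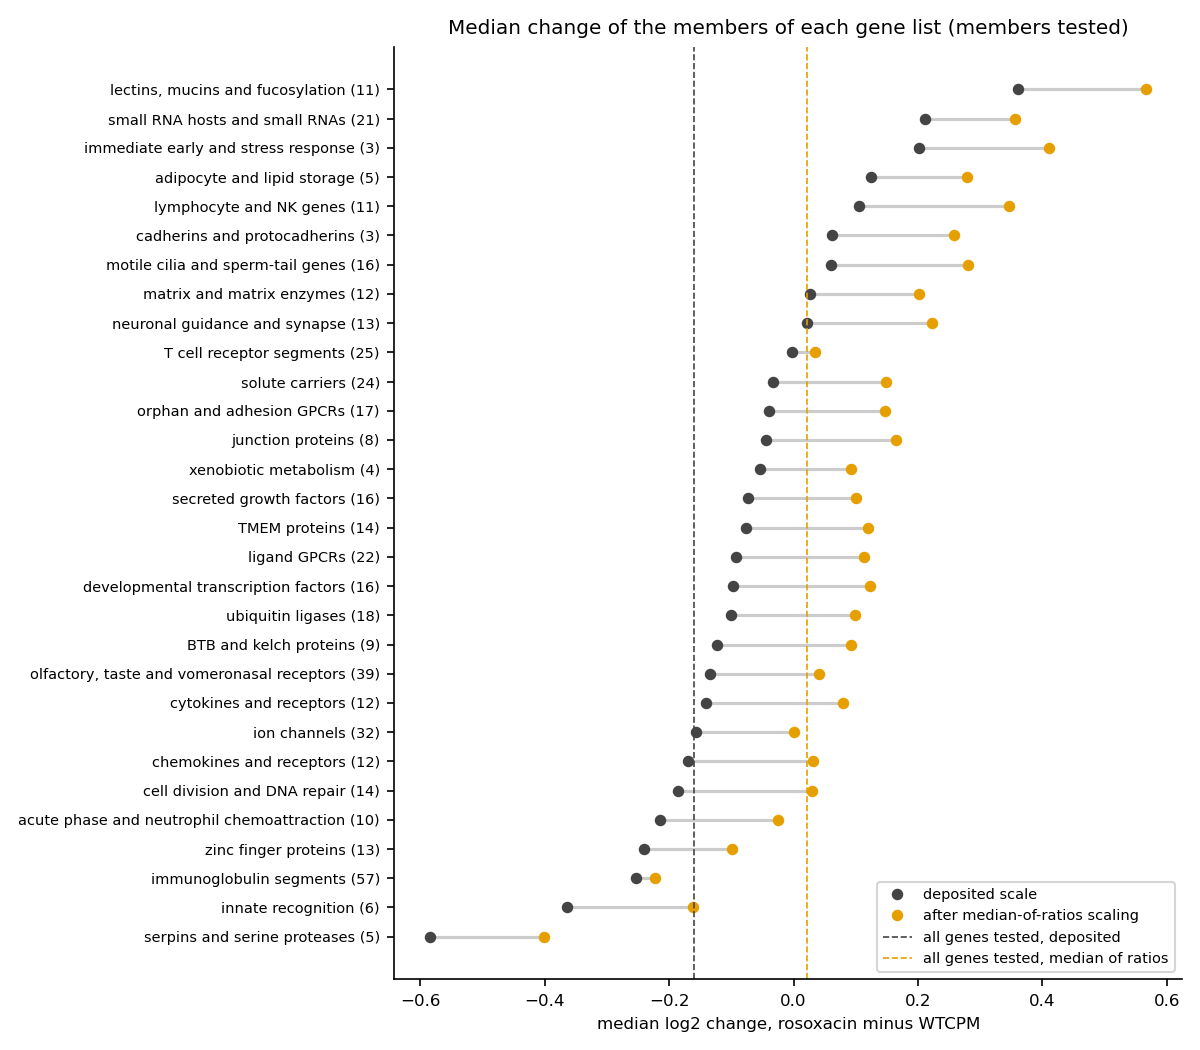
Median log2 change from WTCPM to rosoxacin mice over the tested members of each of 30 gene lists (members tested in brackets), on the deposited scale (dark) and after median-of-ratios scaling (orange). Dashed lines are the medians of all 2749 genes, -0.16 and 0.02, and lists run from serpins and serine proteases (-0.58 on the deposited scale) to lectins, mucins and fucosylation (0.36).

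Of all 2749 genes 0.546% passed on the deposited scale and 0.582% after scaling, so that 0 calls in a list of inflammatory signals with 6 to 12 tested genes is near the background. Among 12 chemokines and receptors 0 passed, with medians of -0.17 and 0.03. Cxcr2, the receptor by which neutrophils follow chemokines, was at 0.588, 0.599, 0.366 and 0.511 FPKM in WTCPM and at 1.37, 0.652, 0.737 and 0.651 in rosoxacin mice, which lie above them without passing (0.59, SE 0.30, adjusted p = 0.341, and 0.84, adjusted p = 0.238, after scaling). Xcr1, which marks dendritic cells that present antigen to CD8 T cells, was at 0.526 to 0.637 and 0.301 to 0.469 (-0.57, SE 0.19, adjusted p = 0.146, and -0.34, adjusted p = 0.409, after scaling). Among 12 cytokines and receptors (medians -0.14 and 0.08) and 10 genes of the acute phase and of neutrophil attraction (-0.21 and -0.02), 0 passed. Osm, the cytokine oncostatin M, was at 0.484 to 0.691 FPKM in WTCPM and 0.213 to 0.415 in rosoxacin mice (-0.78, SE 0.24, adjusted p = 0.124), and the neutrophil attractant Cxcl2 was at 0.237 to 0.886 and 0.248 to 0.611 (-0.27, SE 0.32).
Il2, the T cell growth factor, was listed at 0 in all rosoxacin mice and at 0 to 0.353 FPKM in WTCPM mice. The 6 genes of innate recognition had medians of -0.36 and -0.16. Tlr11 and Tlr12, receptors for profilin of parasites, were lower in the mean (-0.61, SE 0.24, and -0.54, SE 0.22) and Tlr9, a receptor for unmethylated DNA, was higher (0.37, SE 0.20), none of which passed (adjusted p = 0.209, 0.224 and 0.356). The 3 immediate early and stress genes had medians of 0.20 and 0.41, with Apold1 the 1 that passed, and Gdf15, a stress cytokine, at 0.353 to 0.577 FPKM in WTCPM and 0.109 to 0.531 in rosoxacin mice.

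Receptors and regulators had medians near those of all genes. The 17 orphan and adhesion receptors had medians of -0.04 and 0.15, with Adgrg5 the 1 that passed after scaling. Gpr27, an orphan receptor, was at 0.786 to 0.954 FPKM in WTCPM and 0.562 to 0.704 in rosoxacin mice (-0.48, SE 0.17, adjusted p = 0.166). The 22 receptors with known ligands had medians of -0.09 and 0.11 and 0 calls, and C3ar1, the receptor of the complement fragment C3a and the most abundant of them, was at 0.941 to 1.25 and 0.880 to 1.04. Of 16 developmental transcription factors (medians -0.10 and 0.12) 0 passed. Foxq1, a forkhead factor, was at 0.700 to 0.865 FPKM in WTCPM and 0.962 to 1.15 in rosoxacin mice, without overlap (0.35, SE 0.15, adjusted p = 0.274). Gata1, which drives red cell, mast cell and eosinophil development, was at 0.162 to 0.245 in WTCPM and 0 to 0.196 in rosoxacin mice (-0.90, SE 0.36). The 13 zinc finger genes had medians of -0.24 and -0.10 and 0 calls. On the deposited scale 3 were lower and 1 higher without overlap, beside 8.95% and 2.18% of all genes. After scaling 1 was lower and 1 higher, beside 3.78% and 4.98%. Zbtb3 was at 0.899 to 1.29 and 0.436 to 0.822 (-0.70, SE 0.20, adjusted p = 0.116), and Zfp967 at 4.47 to 5.12 and 1.77 to 4.03 (-0.62, SE 0.38).

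Lists of transport and structural genes held between 0 and 1 call each. Of all genes 0.546% passed on the deposited scale and 0.582% after scaling. A single call among 3, 9 or 14 tested genes is a larger share, but members were chosen with earlier results of these data known. Solute carriers (24 tested, medians -0.03 and 0.15) and ion channels (32 tested, -0.16 and 0.00) had 0 that passed. Slc39a12, a zinc transporter, was at 0.141 to 0.299 FPKM in WTCPM and 0 to 0.174 in rosoxacin mice (-1.11, SE 0.34, adjusted p = 0.121), and Scn2a, a voltage-gated sodium channel, was at 0.427 to 0.574 and 0.184 to 0.372 (-0.68, SE 0.21, adjusted p = 0.127). Among 3 cadherins the fallen Pcdh20 stood beside Cdh22, at 0.196 to 0.301 and 0.152 to 0.442. Among 9 BTB and kelch genes (-0.12 and 0.09) the fallen Kbtbd13 stood beside Klhl33, at 0.486 to 0.760 and 0.200 to 0.440 without overlap (-0.75, SE 0.25, adjusted p = 0.159). Among 14 TMEM genes (-0.08 and 0.12) Tmem52 passed, and Tmem28, at 0.405 to 0.550 and 0.127 to 0.391, did not (-0.77, SE 0.25, adjusted p = 0.142). The 12 matrix genes (0.03 and 0.20) and 8 junction genes (-0.04 and 0.17) had 0 calls, and the tight junction gene Cldn8 was at 0.871 to 1.14 and 1.03 to 1.21. Motile cilia and sperm-tail genes (16 tested, 0.06 and 0.28) had 0 calls, with Ccno, a cyclin needed to form many cilia, at 0.596 to 0.903 and 0.223 to 2.47.

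Lists of lymphocyte and dividing-cell genes also had 0 calls, near the same background of 0.546% and 0.582%. The 57 immunoglobulin segments had medians of -0.25 and -0.22, and the 25 T cell receptor segments -0.00 and 0.03. Single segments varied widely between mice of a group, with Trbv13-2 at 0.294 to 0.635 FPKM in WTCPM and 0.222 to 1.57 in rosoxacin mice. The 11 lymphocyte and natural killer genes had medians of 0.11 and 0.35, and Icos, a T cell costimulator, was at 0.370 to 0.544 and 0.304 to 0.729. The 14 genes of cell division and DNA repair had medians of -0.19 and 0.03, and the spindle checkpoint kinase Ttk was at 0.176 to 0.557 and 0 to 0.313 (-1.14, SE 0.39, adjusted p = 0.165). Secreted growth factors (16 tested), ubiquitin ligases (18), neuronal guidance and synapse genes (13), adipocyte genes (5) and xenobiotic metabolism (4) also had 0 calls, with medians between -0.10 and 0.12 on the deposited scale and between 0.09 and 0.28 after scaling. The growth factor gene Fgf13 was at 0.0818 to 0.271 and 0.190 to 0.586 FPKM (0.95, SE 0.33, adjusted p = 0.166). The 39 olfactory, taste and vomeronasal receptor genes had medians of -0.13 and 0.04, and the 21 microRNA and host genes 0.21 and 0.36.

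Among classes of gene in the GENCODE annotation, processed pseudogenes had a low median change and small nuclear RNAs a high one. The 963 processed pseudogenes had a median change of -0.30, and -0.11 after scaling, against -0.10 and 0.10 for 870 protein-coding genes and -0.06 and 0.11 for 407 long noncoding RNAs. Of the pseudogenes 136 (14.1%) were lower and 7 (0.727%) higher in all rosoxacin mice, and 60 (6.23%) and 24 (2.49%) after scaling, beside 8.95% and 2.18%, and 3.78% and 4.98%, of all genes. Their summed FPKM was 267 to 304 in WTCPM and 197 to 234 in rosoxacin mice, without overlap, but 249.9 to 286 and 246 to 264 after scaling, with overlap. The summed FPKM of protein-coding genes was 267 to 280 and 239 to 262 on the deposited scale and 252 to 262 and 275 to 321 after scaling, so that its direction turned with the scale.
The 64 small nuclear RNA genes, most of them copies of spliceosomal RNAs, had medians of 0.24 and 0.41, with 0 calls. Their summed FPKM was 9.32 to 12.5 in WTCPM and 13.7 to 20.9 in rosoxacin mice, without overlap, and 8.69 to 12.1 against 14.4 to 23.7 after scaling. On the deposited scale this is a mean of 0.146 to 0.196 FPKM per gene in WTCPM and 0.214 to 0.327 in rosoxacin mice. Single genes of the class thus lie at low levels, and the fragments behind them are not given here. Without overlap 3 of the 64 (4.69%) were higher and 0 lower on each scale. For all genes these shares were 2.18% and 8.95%, and 4.98% and 3.78% after scaling. Control mice, with a sum of 8.20 to 15.8 FPKM, overlapped with both groups. With TPM the median of this class was 0.00, beside -0.46 for all genes. The 60 microRNA genes had medians of 0.17 and 0.31, and -0.05 with TPM, beside the same -0.46. The classes were compared after their values were seen and have no test.

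**Figure D5:**
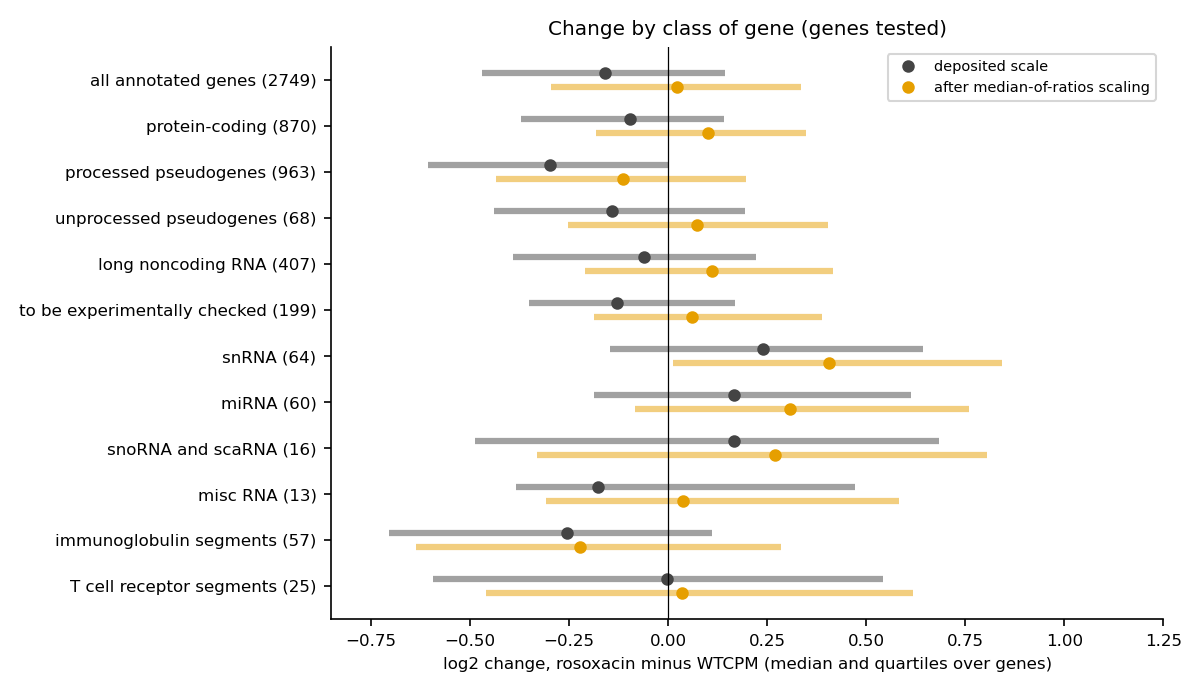
Log2 change from WTCPM to rosoxacin mice by class of gene (genes tested in brackets): points are medians and bars run from the lower to the upper quartile over genes, on the deposited scale (dark) and after median-of-ratios scaling (orange). Processed pseudogenes have medians of -0.30 and -0.11, and small nuclear RNAs of 0.24 and 0.41.

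Cell type markers could be followed only in part, because most have no identifier of their own in the table. None of the markers of alveolar type 1 and type 2, ciliated, fibroblast, alveolar macrophage, monocyte, B and plasma, or liver cells was present under its own name, so the lung label could not be checked on them. Of 12 neutrophil markers 2 were tested, Cxcr2 and Asprv1, and the sum of the 3 with an identifier was 0.606 to 0.924 FPKM in WTCPM and 0.837 to 1.69 in rosoxacin mice. Ly6g, the third, was listed at 0 in all WTCPM and rosoxacin mice. Asprv1 overlapped, at 0.241 to 0.325 FPKM in WTCPM and 0.185 to 0.473 in rosoxacin mice (0.14, adjusted p = 0.804). The higher sum came mainly from Cxcr2, whose highest value, 1.37 FPKM, was in rosoxacin mouse 1. The part of neutrophils in the values of Cxcr2 and Mefv was not tested. The eosinophil, basophil and mast cell markers, 10 with an identifier, summed to 0.283 to 0.443 and 0.354 to 0.662 FPKM, and those of red cells, 2 with an identifier, to 0.183 to 0.476 and 0.0643 to 0.227.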

How the data were processed

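Lung RNA of 16 mice was sequenced on a HiSeq instrument, per the labels. The authors deposited FPKM per transcript for 32 libraries. The submitters' processing notes list StringTie 2.1.5, HISAT2 2.2.1, HISAT, R 4.0.4, SAMtools 1.12 and FastQC, with the build mm10, and their settings were not given in the sources used here. For each mouse, the 2 lanes were averaged and transcripts summed per identifier.

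Groups were tested with limma 3.58.1 under R 4.3.3 (eBayes with trend, all 4 groups, log2(FPKM + 0.1), Benjamini-Hochberg over 2749 genes, threshold 0.05), which was tested on simulated data. A fold on this scale understates changes of low genes. Exact permutation tests used scipy 1.17.1 and figures matplotlib 3.10.9. GENCODE M21 on mm10 gave symbols, positions and overlapping genes (25510 of 26305 identifiers received a symbol).

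Depth was estimated from FPKM steps of genes with 1 transcript. Only 26.3% to 32.0% of low values lay within 0.05 of a whole mate read, so read counts were not recovered, and fragment numbers are FPKM times length times depth. Over the tested genes with 1 transcript, the median mouse value had a median of 3.02 fragments (quartiles 1.11 and 8.27).

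Named genes are those that passed on either scale, the 10 in each direction with the smallest p and no overlap, and from each list the members that passed, the highest and lowest change and the 2 most abundant, of which the text gives a selection. Members and lists were chosen with earlier results of these data known. Alternatives were TPM, quantile normalisation, other pseudocounts and filters, single lanes, other fits, a replicate block, the library number as a covariate and each mouse left out.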

Additional observations from a re-analysis of the deposited data

Results flagged for a closer look

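Of 92 groups of 4 mice checked, for the genes named by passing or by smallest p and 6 library quantities, 8 had 1 mouse whose gap to the other 3 exceeded Dixon's critical value. For normally distributed values chance gives this in about 1 of 20 groups, a rate that does not hold for groups with mice listed at 0. Such a gap rests on a value above 0 beside 3 mice listed at 0 for Itln1 in WTCPM mouse 4 (0.0584 FPKM), Gm48080 in WTCPM mouse 3 (0.174 FPKM), Lep in WTCPM mouse 1 (0.0471 FPKM) and Eprn in rosoxacin mouse 1 (0.0372 FPKM). In rosoxacin mouse 1, Gm37284 was at 0.443 FPKM where the other 3 mice were at 1.16 to 1.29, and Spin2c was at 0.179 FPKM where the others were at 0.328 to 0.346. WTCPM mouse 1 held 0.253 FPKM of Zfp618 against 0.285 to 0.291 in the others, and WTCPM mouse 4 held 0.117 FPKM of Pacsin1 against 0.224 to 0.236. Rosoxacin mouse 1 is also the one with the highest total FPKM, 1329950, and the lowest median-of-ratios factor, 0.746.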

How the results depend on the processing

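The signs of all 42 genes named by passing or by the smallest p were kept under every alternative tried on either scale. As these genes were picked from the same data for a clear difference, their kept signs are a description and no test. The number of genes past the threshold varied between the alternatives. Against 15 on the deposited scale, limma called 270 with TPM (3 higher, 267 lower), 6 after quantile normalisation (1 higher, 5 lower), 5 without a filter, 39 with a filter of 0.25 FPKM, 3 in a fit of the 2 groups alone, 23 with array weights, 3 with the library number as a covariate, 128 with genes and loci in 1 fit (24 higher, 104 lower) and 9 with protein-coding genes alone, an alternative added after the data were seen. Lane 1 alone gave 0 calls, with 334 genes at an unadjusted p below 0.05, and lane 2 alone gave 13. Without single mice the count ranged from 2 (without WTCPM mouse 4) to 24 (without control mouse 1). It also moved by more than 1.5 times without WTCPM mouse 2 (4), WTCPM mouse 3 (9) and rosoxacin mouse 1 (5). After median-of-ratios scaling the count of 16 became 1 with the library number as a covariate, and without single mice it ranged from 4 (without WTCPM mouse 2 or 3) to 28 (without control mouse 1). It was 7 to 10 without control mouse 2, WTCPM mouse 4, each rosoxacin mouse, or dexamethasone mouse 3 or 4. The median change of all genes, -0.16, was 0.022 after median-of-ratios scaling, -0.46 with TPM, -0.064 and -0.036 with pseudocounts of 0.5 and 1, and 0.00 without a filter, and -0.18 to -0.12 without single mice. The difference in annotated genes above 0.1 FPKM, rosoxacin minus WTCPM, -166, was -196.5 on lane 1 alone (exact permutation p = 0.0286), -154.75 on lane 2 alone (exact permutation p = 0.114) and -95.6 without rosoxacin mouse 1. The cause of these shifts was not tested. Same-numbered WTCPM and rosoxacin mice are different animals, and their deviations had correlations of -0.04 to 0.03. A fit with the replicate block gave 15 calls on the deposited scale, 13 of them shared with the fit without it, and 16 after scaling, 11 of them shared.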
